A study of Mus musculus with 18 samples.

Results

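A set of 8 genes of meiotic prophase, out of 53715 genes in the deposited count table, was followed through mouse oocytes grown *in vivo* and *in vitro*: *Hormad1*, *Sycp3*, *Sycp1*, *Dmc1*, *Msh4*, *Msh5*, *Ccnb1ip1* and *Mlh3*. They were taken by gene symbol, and 2 of them, *Ccnb1ip1* and *Mlh3*, were chosen by their measured reads, which the libraries of metaphase II (MII) oocytes grown *in vitro* held and those grown *in vivo* did not. Values of these 2 genes are therefore given as a description, with no test, and tests are given for the other 6.

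RNA sequencing covered 18 libraries of C57Bl/6j x CBA/J F1 mice, 3 in each of 6 groups. In primordial and primary follicles, oocytes were collected from sections by laser capture microdissection (LCM). The *in vivo* LCM groups came from non-cultured ovaries of 14-day-old mice, and the *in vitro* LCM groups from ovaries of 7-day-old mice cultured for 7 days in α-MEM with fetal bovine serum, insulin-transferrin-selenium and follicle-stimulating hormone. The *in vivo* MII oocytes were collected from superovulated adult females, and the *in vitro* MII oocytes were grown in the same ovary culture for 7 days and then as isolated follicles in alginate for 12 days, before hCG was added to induce ovulation. Oocytes were pooled within a sample, and the labels do not say that replicates came from separate animals, so p-values measure only the spread between these samples, which may be technical.

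Meiotic prophase begins in the fetal ovary. Chromosomes form an axis, of which HORMAD1 and SYCP3 are parts, and the synaptonemal complex zips homologous axes together through the transverse filament protein SYCP1. DMC1 carries out strand exchange at programmed DNA breaks, MSH4 and MSH5 form the MutSγ complex that stabilises the resulting joint molecules, CCNB1IP1 (HEI10) is a ubiquitin ligase that limits them to crossover sites, and MLH3 belongs to the nuclease that resolves them as crossovers. Oocytes complete this program and arrest at diplotene before follicles grow, so all stages measured here lie after the steps in which these proteins act.

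The LCM libraries held 15149564 to 29205503 counts and the MII libraries 7334817 to 9978830. A gene was taken as detected above 3 reads in a library, a floor of 0.103 to 0.198 CPM in LCM and 0.301 to 0.409 CPM in MII libraries, where CPM is a read count scaled by its library's total. The floor covers counting error only. LCM and MII libraries were made by different extraction and library methods, so stage and preparation cannot be told apart between them and no test compared them. All 8 oocyte markers (*Gdf9*, *Bmp15*, *Zp2*, *Zp3*, *Ooep*, *Nlrp5*, *Ddx4* and *Dazl*) had reads in every group, with a summed level of 6334 to 11910 CPM in MII libraries and 29.3 to 1199 CPM in LCM libraries. The LCM libraries also held the 5 theca and stroma markers at a summed 300.5 to 21040 CPM, led by *Col1a1*, and the 7 granulosa markers at 8.07 to 1438 CPM, with *Fshr* at 0 in every LCM library. In MII libraries, stroma markers summed to at most 13.6 CPM and granulosa markers to 45.9 to 122.1 CPM. Of the latter, *Cyp19a1* had 334 to 1039 reads, whereas *Foxl2* and *Fst* had 0 in every MII library. The endothelium marker *Pecam1* stood at 89.2 to 213.1 CPM there. The leukocyte marker *Ptprc* was at 0 in all 18 libraries. The blood marker *Hba-a1* had 42352 and 7047 reads in the first and second primary *in vivo* libraries (up to 1661 CPM). It had 1005 in the second primordial *in vivo* library, 976 in the first primary *in vitro* library and at most 2 elsewhere.

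Promoter sequence is shown for 4 of the genes, 3 because they encode the axis and synaptonemal complex proteins and 1 because its start bears on how its reads were counted. Each run is the 250 bases before and the 50 after the RefSeq start on GRCm38.p6, written 5′ to 3′ along the gene, and capitals mark CACGTG (an E-box, the motif of MAX and its partners) and GCGGGAA (an E2F motif), searched on both strands with no overlap between the matches. RefSeq windows were found for all 8 genes.
Sycp3 (chr10:88459337-88459636, plus strand): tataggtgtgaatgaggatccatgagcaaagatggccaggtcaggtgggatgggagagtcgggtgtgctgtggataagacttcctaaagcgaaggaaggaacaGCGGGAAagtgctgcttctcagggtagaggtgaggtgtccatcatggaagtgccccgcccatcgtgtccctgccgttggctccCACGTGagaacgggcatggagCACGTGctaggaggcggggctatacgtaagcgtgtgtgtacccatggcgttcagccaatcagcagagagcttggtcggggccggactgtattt
Hormad1 (chr3:95559427-95559726, plus strand): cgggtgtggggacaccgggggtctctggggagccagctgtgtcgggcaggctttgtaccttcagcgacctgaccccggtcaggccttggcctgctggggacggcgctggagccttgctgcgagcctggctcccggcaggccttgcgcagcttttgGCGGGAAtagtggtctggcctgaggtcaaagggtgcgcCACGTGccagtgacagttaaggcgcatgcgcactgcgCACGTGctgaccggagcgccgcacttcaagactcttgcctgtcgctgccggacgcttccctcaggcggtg
Sycp1 (chr3:102936051-102936350, minus strand): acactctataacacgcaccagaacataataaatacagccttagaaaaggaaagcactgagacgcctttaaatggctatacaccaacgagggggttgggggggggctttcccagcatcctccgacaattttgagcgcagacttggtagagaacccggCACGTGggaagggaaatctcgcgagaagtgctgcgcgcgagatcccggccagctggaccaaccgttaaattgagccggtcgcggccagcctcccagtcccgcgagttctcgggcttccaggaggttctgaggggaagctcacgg
Ccnb1ip1 (chr14:50795679-50795978, minus strand): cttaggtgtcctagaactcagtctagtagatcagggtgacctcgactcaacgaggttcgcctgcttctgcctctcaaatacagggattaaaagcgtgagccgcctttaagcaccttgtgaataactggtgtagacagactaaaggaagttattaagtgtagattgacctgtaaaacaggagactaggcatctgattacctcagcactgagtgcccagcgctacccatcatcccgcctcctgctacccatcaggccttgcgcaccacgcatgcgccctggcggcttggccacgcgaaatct
The E-box occurred 2 times in the *Sycp3* window, 2 times in that of *Hormad1* and 1 time in that of *Sycp1*, against 7.15% of all 32851 promoter windows that held it. The E2F letters stood once in the windows of *Sycp3*, *Hormad1* and *Msh5* and in 4.6% of all windows. Neither motif, nor TGACGTCA, which 1.79% of all windows held, was found in the windows of *Ccnb1ip1*, *Mlh3*, *Msh4* and *Dmc1*. E2F6 and the MGA-MAX complex are known repressors of germline genes, and nothing in these libraries measured their binding.

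The question put to these genes was how their transcripts stood in oocytes grown in culture against those grown in the animal, at each follicle stage. In MII oocytes, transcripts of *Sycp3*, *Msh4* and *Sycp1* were above the floor in all 6 libraries, and those of *Msh5*, *Dmc1* and *Hormad1* in 5, 4 and 3 of the 6. None of the 6 tested genes passed the test at any stage. TPM, which is scaled by gene length and library size, gave the order of the genes in *in vivo* MII oocytes as *Sycp3* (71.0 ± 29.1; mean ± SD, n = 3), *Msh4* (21.6 ± 5.35), *Sycp1* (20.4 ± 4.63), *Msh5* (1.79 ± 0.488), *Dmc1* (1.37 ± 0.996) and *Hormad1* (1.19 ± 2.07), with *Ccnb1ip1* and *Mlh3* at 0. The libraries of *Msh4* and *Sycp1* overlapped, as did those of *Msh5*, *Dmc1* and *Hormad1*, whereas *Sycp3* lay above *Msh4* and *Sycp1* above *Msh5* in every library. The place of *Sycp3* counts all its reads, including any over the 660 exon bases it shares with the gene *Chpt1* (below). Its place without such reads was not tested. *In vitro*, *Sycp3* stood at 179.6 ± 92.6 TPM, *Msh4* at 32.2 ± 8.65 and *Sycp1* at 20.7 ± 8.78, and these 3 were again the highest.

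**Figure D1:**
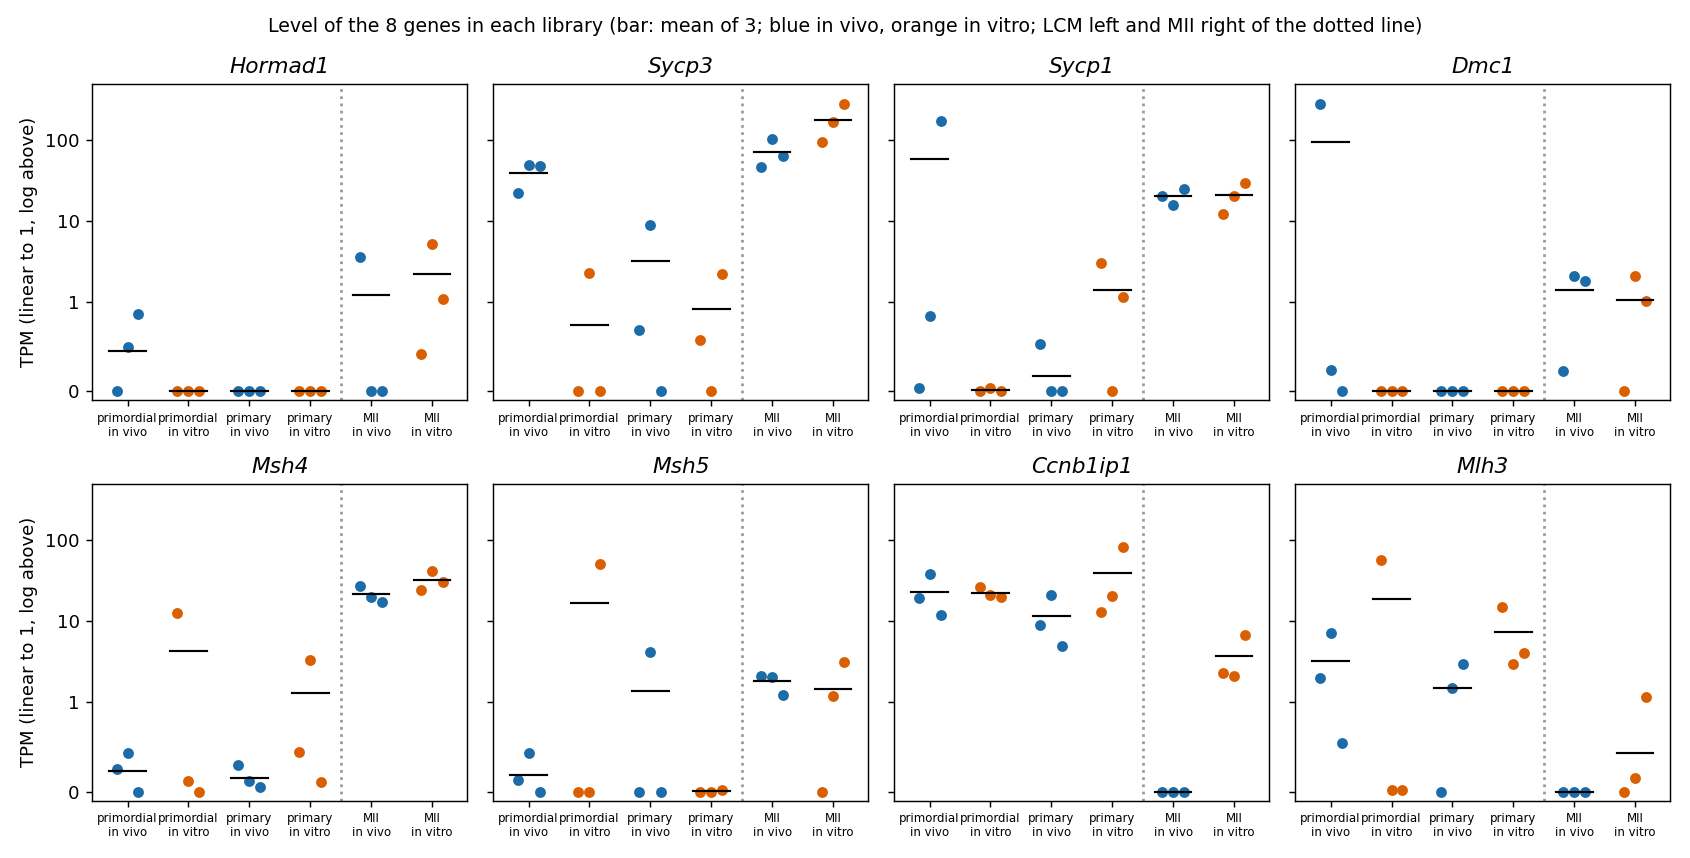
TPM of each gene (y axis, linear up to 1 and logarithmic above) in every library of the 6 groups on the x axis, with points for libraries, bars for group means, blue for *in vivo* and orange for *in vitro*. *Sycp3*, *Msh4* and *Sycp1* had reads in all 6 MII libraries, whereas in the LCM libraries the mean of *Dmc1*, *Sycp1* and *Msh5* came almost wholly from 1 library.

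*Sycp3* (ENSMUSG00000020059, chromosome 10, 88459569 to 88473236, plus strand) encodes the axis protein that organises the lateral elements. It was covered by 210, 389 and 269 reads in the *in vivo* MII libraries and 501, 744 and 1145 *in vitro*, which is 25.1 to 46.7 CPM and 58.1 to 128.3 CPM after TMM scaling. Every *in vitro* library was higher than every *in vivo* library, as was so for 9.37% of the 17144 genes tested. Its log2 fold change was 1.37 ± 0.414 (SE), with a 95% confidence interval of 0.48 to 2.26. The edgeR quasi-likelihood test gave an unadjusted p = 0.0054 and a Benjamini-Hochberg adjusted p = 0.273, so the gene was not called. DESeq2 gave an adjusted p of 0.0829, and over all alternatives the adjusted p ranged from 0.0671 to 0.728.

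At its 3′ end, 660 exon bases of *Sycp3* lie over exons of *Chpt1*, a gene of phosphatidylcholine synthesis on the opposite strand. In MII libraries *Chpt1* had 129, 242 and 215 reads *in vivo* and 347, 451 and 755 *in vitro*, which is 0.606 to 0.799 times the reads of *Sycp3* in the same library. Its mean level was 22.2 ± 6.81 CPM *in vivo* and 55.8 ± 25.0 CPM *in vitro*, 2.51-fold higher, beside 2.58-fold for *Sycp3*. Whether counting used strand is not stated, so reads of the shared bases cannot be assigned to one of the 2 genes. With the reads of *Chpt1* subtracted, a lower limit of each level chosen after the data were seen, *Sycp3* stood at 10.96 ± 6.14 CPM *in vivo*. *In vitro* it stood at 29.8 ± 13.1 CPM, 2.71-fold higher, and the nearest libraries were at 17.6 and 17.9 CPM. Lower limits of the levels do not bound the fold change, so the part of *Chpt1* in the difference was not tested. The genes did not go together in the LCM libraries, where *Chpt1* had 7857 reads in the first primary *in vivo* library and *Sycp3* had 6.

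*Sycp1* (ENSMUSG00000027855, chromosome 3, 102818499 to 102936100, minus strand) encodes the transverse filament. It had 257, 168 and 302 reads in the *in vivo* and 182, 254 and 344 in the *in vitro* MII libraries. The groups overlapped, with a log2 fold change of 0.03 ± 0.424 (SE) and an interval of -0.88 to 0.94, so a difference of just under 2-fold either way lies inside it. *Hormad1* (ENSMUSG00000028109, chromosome 3, 95559677 to 95587671, plus strand) was covered by 22, 0 and 0 reads *in vivo* and 3, 31 and 6 *in vitro*. Of these 6 libraries, 3 were above the floor, and the log2 fold change of 0.59 had an interval of -3.36 to 4.54.

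*Msh4* (ENSMUSG00000005493, chromosome 3, 153857149 to 153906138, minus strand) was covered by 676, 411 and 403 reads in the *in vivo* and 719, 1012 and 682 in the *in vitro* MII libraries. After TMM scaling these were 41.5 to 80.8 CPM and 76.4 to 95.7 CPM, so the groups overlapped through the first *in vivo* library, and the log2 fold change was 0.57 ± 0.359 (SE) with an adjusted p of 0.563 in edgeR. Its partner *Msh5* (ENSMUSG00000007035, chromosome 17, 35028605 to 35046745, minus strand) stood far lower, at 41, 34 and 23 reads *in vivo* and 0, 23 and 56 *in vitro*. The mean TPM of *Msh4* was 21.6 against 1.79 for *Msh5* in *in vivo* MII oocytes and 32.2 against 1.43 *in vitro*, although the proteins act as a pair. The log2 fold change of *Msh5* was -0.42, with an interval of -2.95 to 2.10.

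*Dmc1* (ENSMUSG00000022429, chromosome 15, 79561497 to 79605109, minus strand), the meiotic recombinase, had 2, 15 and 15 reads in the *in vivo* and 0, 18 and 8 in the *in vitro* MII libraries. The log2 fold change was -0.45, with an interval of -4.00 to 3.10. Of the 17144 genes tested in MII oocytes, 60 were called (0.35%), and 0 of the 6 genes was. At an unadjusted p under 0.05 in edgeR, 1 of the 6 passed (*Sycp3*), against 10.2% of all genes, and DESeq2 called 0 of the 6. The median log2 fold change of the 6 was 0.30, beside 0.04 over all genes tested.

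**Figure D2:**
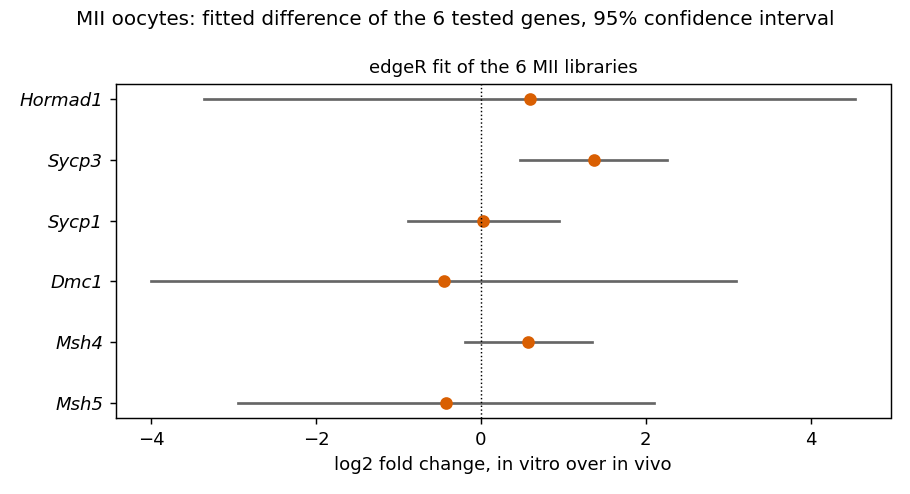
Log2 fold change of the 6 tested genes in MII oocytes, *in vitro* over *in vivo* (x axis), as fitted by edgeR from the 6 MII libraries, with lines for the 95% confidence interval. The interval of *Sycp3*, 0.48 to 2.26, lies above 0, and those of the other 5 genes include 0.

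*Mlh3* (ENSMUSG00000021245, chromosome 12, 85234520 to 85270599, minus strand) was covered by 0, 4 and 28 reads in MII oocytes grown *in vitro*. Its reads therefore came from 2 libraries, with 88.7% of its summed CPM in the third, and the group mean was at least 3.42-fold higher than the *in vivo* group at its floor of 3 reads per library. Of the 53715 genes of the count table, 431 had the pattern by which it was chosen. These had no read in *in vivo* MII oocytes and were above the floor in at least 2 *in vitro* libraries. The pattern of *Ccnb1ip1*, above the floor in all 3, was shared by 125 genes. The opposite pattern, with no read *in vitro*, was held by 94 genes in at least 2 *in vivo* libraries and by 19 in all 3. The MII libraries had reads on 14512 to 15622 genes *in vivo* and on 15442 to 18239 *in vitro*. The part of this in the counts of each pattern was not tested. In LCM oocytes *Mlh3* had 102, 378 and 30 reads in primordial *in vivo*, 2026, 1 and 1 in primordial *in vitro*, 0, 81 and 114 in primary *in vivo* and 788, 170 and 245 in primary *in vitro* libraries. The 3 primary *in vitro* libraries lay above the 3 *in vivo* libraries, as was so for 8.74% of the 15317 genes, and at the primordial stage the groups overlapped.

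*Ccnb1ip1* (ENSMUSG00000071470, chromosome 14, 50789248 to 50807732, minus strand) was the only one of the 8 genes above the floor in all 12 LCM libraries, which was so for 12.2% of the 15317 genes with at least 10 LCM reads. Its counts there were almost the same as those of another gene. The annotated exon of *Ccnb1ip1* farthest upstream (chromosome 14, 50807500 to 50807732) lies wholly inside *Rpph1* (50807449 to 50807767, same strand), the gene of the RNA component of ribonuclease P, which processes transfer RNA. *Ccnb1ip1* had 251, 506 and 168 reads in primordial *in vivo* libraries, where *Rpph1* had 251, 481 and 168. It had 235, 342 and 240 in primordial *in vitro* libraries, where *Rpph1* had 58, 342 and 240. In primary follicles both genes had 116, 290 and 47 reads *in vivo* and 171, 295 and 1270 *in vitro*.

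The counts of the 2 genes were thus equal to the read in 10 of 12 LCM libraries, and *Ccnb1ip1* had 25 reads more in the second primordial *in vivo* library and 177 more in the first primordial *in vitro* library. Over the LCM libraries 3931 reads were counted on *Ccnb1ip1* and 3729 on *Rpph1*, a difference of 202 reads, or 5.14%. Equal counts of this kind were uncommon. Of 1239 pairs of genes that share exon bases on the same strand, 11 had equal counts above 0 in at least 10 LCM libraries, and of 1219 pairs on opposite strands 0 had. The RefSeq promoter window printed above lies 11471 bases from *Rpph1*, so a transcript from there does not cover the shared exon.

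In MII oocytes the counts of the 2 genes differed. *Ccnb1ip1* was at 18, 14 and 41 reads *in vitro*, where *Rpph1* had 0, 2 and 0, and both genes had no read *in vivo*. The mean TPM of *Ccnb1ip1* was 11.6 to 39.3 in the 4 LCM groups and 3.68 ± 2.59 in *in vitro* MII oocytes, and in 10 of 12 LCM libraries *Rpph1* carried as many reads as stand behind that level. In these 10 libraries *Ccnb1ip1* had no reads beyond the number on *Rpph1*. The counts there therefore do not show *Ccnb1ip1* transcript apart from *Rpph1*. Reads over the shared bases cannot be assigned to either transcript by the counts. Among 20647 genes, *Rpph1* had the pattern nearest to that of *Ccnb1ip1* over the 18 libraries, with a root mean square difference of 0.747 in centred log2(CPM + 1). This follows from the equal counts above and is no separate evidence. The next nearest patterns were those of the small nuclear RNA *Gm22513* (0.85) and *Gm23935* (0.872).

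**Figure D3:**
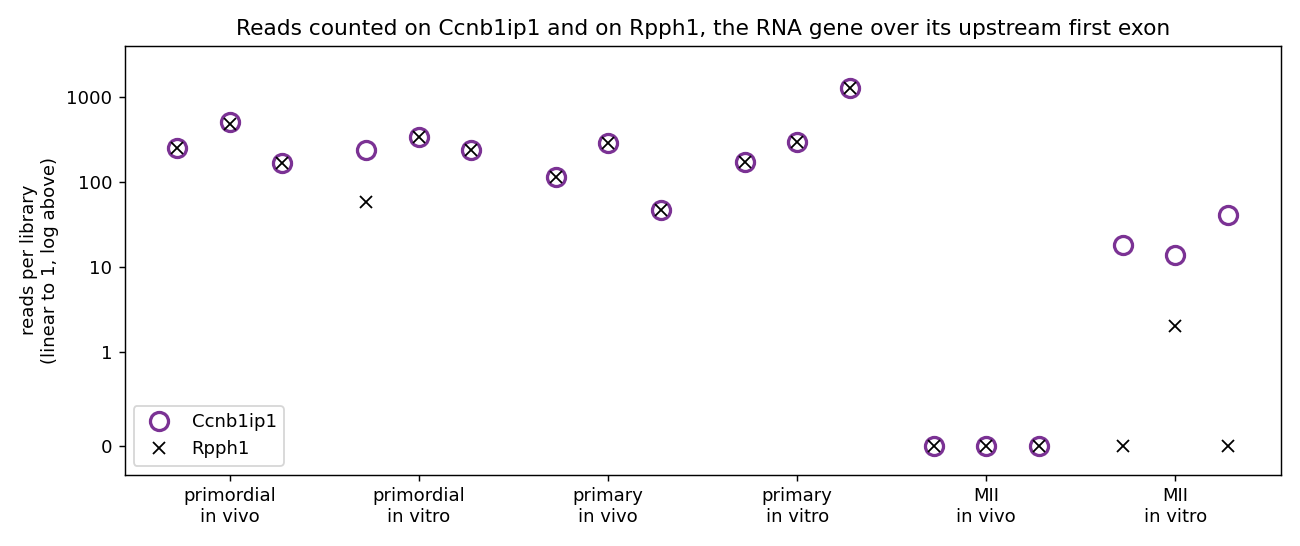
Reads of *Ccnb1ip1* (circles) and *Rpph1* (crosses) in each library (y axis, linear up to 1 and logarithmic above), by group on the x axis. The marks coincide in 10 of the 12 LCM libraries, and in the *in vitro* MII libraries *Ccnb1ip1* stands at 14 to 41 reads with *Rpph1* at 0 to 2.

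In oocytes of primordial follicles, *Sycp3* was above the floor of 3 reads in every *in vivo* library and in 1 of 3 *in vitro* libraries. It had 190, 432 and 451 reads *in vivo* and 0, 24 and 0 *in vitro*, which is 39.6 ± 15.3 TPM against 0.743 ± 1.29 TPM. Every *in vitro* library was lower than every *in vivo* library, as was so for 4.55% of the 15317 genes tested. The group means after TMM scaling, 15.9 ± 7.69 and 0.296 ± 0.512 CPM, differed 53.7-fold. The log2 fold change was -5.71 ± 3.88 (SE), with an interval of -13.3 to 1.89 and an adjusted p of 0.517 in edgeR. DESeq2 gave an unadjusted p of 0.0137 and an adjusted p of 0.105, and the adjusted p ranged from 0.105 to 0.93 over the alternatives.

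Oocyte markers also moved between these libraries. The reads of *Ddx4*, a germ cell helicase, were 5682, 8944 and 6357 *in vivo* and 72, 1749 and 6114 *in vitro*, and the summed oocyte markers ran from 324.6 to 686.4 CPM *in vivo* and from 29.3 to 1199 CPM *in vitro*. Other markers ordered the *in vitro* libraries differently. *Gdf9* had 135, 101 and 15 reads *in vivo* and 32, 7061 and 5 *in vitro*. *Dazl* had 950, 6834 and 2935 reads *in vivo* and 13, 21420 and 399 *in vitro*. The third *in vitro* library thus had 6114 reads of *Ddx4* but 5 of *Gdf9*, and 0 of *Sycp3*. Without the first *in vitro* library, which had the fewest *Ddx4* reads, the log2 fold change of *Sycp3* was -5.14. The part of oocyte content in the difference was not tested, and in such bulk samples fewer oocytes and less RNA per oocyte cannot be told apart.

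*Sycp1*, *Dmc1* and *Hormad1* were each above the floor in 2 of 3 primordial *in vivo* libraries and in 0 of 3 *in vitro* libraries. *Sycp1* had 1, 21 and 4556 reads *in vivo* and 0, 1 and 0 *in vitro*. The groups did not overlap, but 1 read in the lowest *in vivo* library stood against 1 read in the highest *in vitro* library, and 96.9% of the LCM signal of *Sycp1* came from the third primordial *in vivo* library. *Dmc1* had 4717, 4 and 0 reads *in vivo* and 0 in all 3 *in vitro* libraries. The first of these libraries held 99.9% of its LCM signal. *Hormad1* had 0, 6 and 11 reads *in vivo* and 0 in the *in vitro* libraries. Against the *in vitro* floor of 3 reads per library, the *in vivo* means of these genes were at least 505.5-fold, 428.8-fold and 1.69-fold higher, for *Sycp1*, *Dmc1* and *Hormad1* in that order, with the first 2 of these values set by 1 library each.

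The MutSγ genes were high in other single libraries. *Msh4* had 12, 21 and 0 reads in primordial *in vivo* and 411, 7 and 0 in primordial *in vitro* libraries, and *Msh5* had 5, 17 and 0 and then 0, 0 and 1794. The library with 411 reads of *Msh4* was the first and that with 1794 reads of *Msh5* the third, so the genes were not high together. The log2 fold changes were 4.51 and 6.65, and they turned to -1.69 and -5.74 when that library was left out. Of the 15317 genes, 5 were called at this stage (0.0326%) and 0 of the 6 genes. At an unadjusted p under 0.05 in edgeR, 2 of the 6 passed (*Sycp1* and *Dmc1*), against 11.7% of all genes, each with an adjusted p of 0.359. DESeq2 called 0 and left 4 of the 6, *Dmc1*, *Sycp1*, *Msh4* and *Msh5*, without a p-value. It left *Hormad1* without an adjusted p, so only *Sycp3* could be called, here and in every other LCM comparison.

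In oocytes of primary follicles *Sycp3* was above the floor in 4 of 6 libraries, *Sycp1* in 3, and *Dmc1* and *Hormad1* in 0. *Sycp3* had 6, 81 and 0 reads *in vivo* and 5, 0 and 22 *in vitro*. *Sycp1* had 13, 0 and 0 reads *in vivo* and 74, 0 and 33 *in vitro*. *Hormad1* and *Dmc1* had no read in any of the 6 libraries, where the floor allowed up to 0.153 CPM *in vivo* and 0.107 CPM *in vitro*.

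*Msh4* had 14, 6 and 2 reads *in vivo* and 21, 173 and 6 *in vitro*, and *Msh5* had 166 reads in the second *in vivo* library, 1 in the third *in vitro* library and 0 in the other 4. All groups overlapped. Of the 15317 genes, 0 were called in edgeR (0%), and 9.66% had an unadjusted p under 0.05. Of the 6 genes 0 did, and *Dmc1* and *Hormad1*, without reads here, could not. DESeq2 called 244 genes and 0 of the 6, of which only *Sycp3* had an adjusted p. The fitted difference of *Sycp3* was -2.07 on the log2 scale, with an interval of -8.50 to 4.36.

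Between the stages, *Sycp3* was lower in primary than in primordial oocytes of the *in vivo* group in every library, at 0, 6 and 81 reads against 190, 432 and 451, with a log2 fold change of -3.72 ± 3.53 (SE) and an adjusted p of 0.728 in edgeR. Groups that did not overlap in this direction made up 4.02% of genes. *Dmc1* and *Sycp1* had an unadjusted p under 0.05 there, with adjusted p-values of 0.38 and 0.444 in edgeR, and both rest on the single libraries named above. Of the 15317 genes, 8 were called in this comparison (0.0522%) and 0 of the 6. DESeq2 also called 0 of the 6, of which only *Sycp3* had an adjusted p. In the *in vitro* group *Sycp3* had 0, 24 and 0 reads in primordial and 5, 0 and 22 in primary oocytes, with a log2 fold change of -0.08 that was turned by several alternatives. There edgeR called 0 genes (0%), and 10.9% had an unadjusted p under 0.05. *Msh5* was the only one of the 6 among the latter, at an adjusted p of 0.384 in edgeR. DESeq2 called 454 genes and 0 of the 6, of which only *Sycp3* had an adjusted p.

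Whether culture acted differently at the 2 follicle stages was tested as an interaction, the *in vitro* effect in primary minus that in primordial oocytes. It called 16 of 15317 genes (0.104%) and 0 of the 6. At an unadjusted p under 0.05 in edgeR, *Sycp1* (adjusted p = 0.29) and *Msh5* (adjusted p = 0.313) passed, against 11.5% of all genes. DESeq2, with an adjusted p for *Sycp3* alone, called 0 of the 6. The interaction of *Sycp3* was 3.64 ± 4.64 (SE) on the log2 scale.

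How far 1 library set a gene's LCM level can be read from the share of its summed CPM in its highest library. This share was 99.9% for *Dmc1*, 96.9% for *Sycp1*, 91.0% for *Msh5*, 70.5% for *Msh4*, 64.5% for *Hormad1*, 61.9% for *Mlh3*, 36.9% for *Sycp3* and 31.6% for *Ccnb1ip1*. The median over all genes with at least 10 LCM reads was 48.3%, and 14% of these genes had at least 90% in 1 library, as *Dmc1*, *Sycp1* and *Msh5* did. In MII libraries the median over all genes was 31.5%. *Mlh3* had 88.7%, *Ccnb1ip1* 58.4%, *Hormad1* 49.15%, *Sycp3* 35.8%, *Msh5* 31.5%, *Dmc1* 30.9%, *Msh4* 24.0% and *Sycp1* 23.3%.

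The 8 genes were set beside 38 other genes of the meiotic program in 5 lists: formation of double-strand breaks, strand exchange, the axis and synaptonemal complex, formation and resolution of crossovers, and meiotic entry. Of the 38, 19 were above the floor in all 6 MII libraries and 0 in all 12 LCM libraries, while 7 were above it in no MII library and 10 in no LCM library. Of all genes with at least 10 reads, 60.6% were above the floor in every MII library and 12.2% in every LCM library. The 38 were not filtered by their reads. *Syce2*, of the central element that SYCP1 binds, had 565.6 TPM in *in vivo* and 587.5 TPM in *in vitro* MII oocytes. The other leading genes in MII oocytes were *Tex12* of the central element (37.9 and 74.2 TPM), *Hsf2bp* (237 and 151.5), *Psmc3ip* (32.5 and 32.7) and *Mnd1* (13.4 and 26.9), which act in strand exchange, *Cntd1* (62.0 and 57.0) and *Tex11* (34.3 and 29.9), which act in crossover formation, and *Mei4* (29.03 and 16.6), *Rec114* (12.7 and 8.15) and *Iho1* (6.47 and 8.38), which act in break formation. Of meiotic entry, *Ythdc2* stood at 3.32 and 1.99 TPM, *Meioc* at 0.0854 and 1.37 and *Meiosin* at 0 and 0.794.

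*Syce3*, also of the central element, had no read in any library (it and the next 2 genes were named after their values were seen). *Spo11*, which makes the breaks, had 1 read summed over the 18 libraries, and *Stra8*, the inducer of meiotic entry, had none. In LCM oocytes the leading list genes were *Cdk2*, *Hsf2bp* and *Prdm9*, at 104.6, 191.2 and 60.8 mean TPM, and *Prdm9* was above the floor in 4 of 12 libraries. *Pms2* followed at 40.02, *Ythdc2* at 31.4, *Mnd1* at 18.6 and *Syce1* at 15.6, whereas *Meioc* (1.06), *Meiosin* (0.321), *Ankrd31* (0.0853) and *Iho1* (0.0454) were lower. The LCM libraries behind these means were uneven. Reads per library ran from 0 to 21600 for *Cdk2*, to 17663 for *Hsf2bp*, to 14419 for *Pms2* and to 12328 for *Ythdc2*. *Mnd1* had 1054 reads in the third primordial *in vitro* library and at most 76 in any other LCM library.

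**Figure D4:**
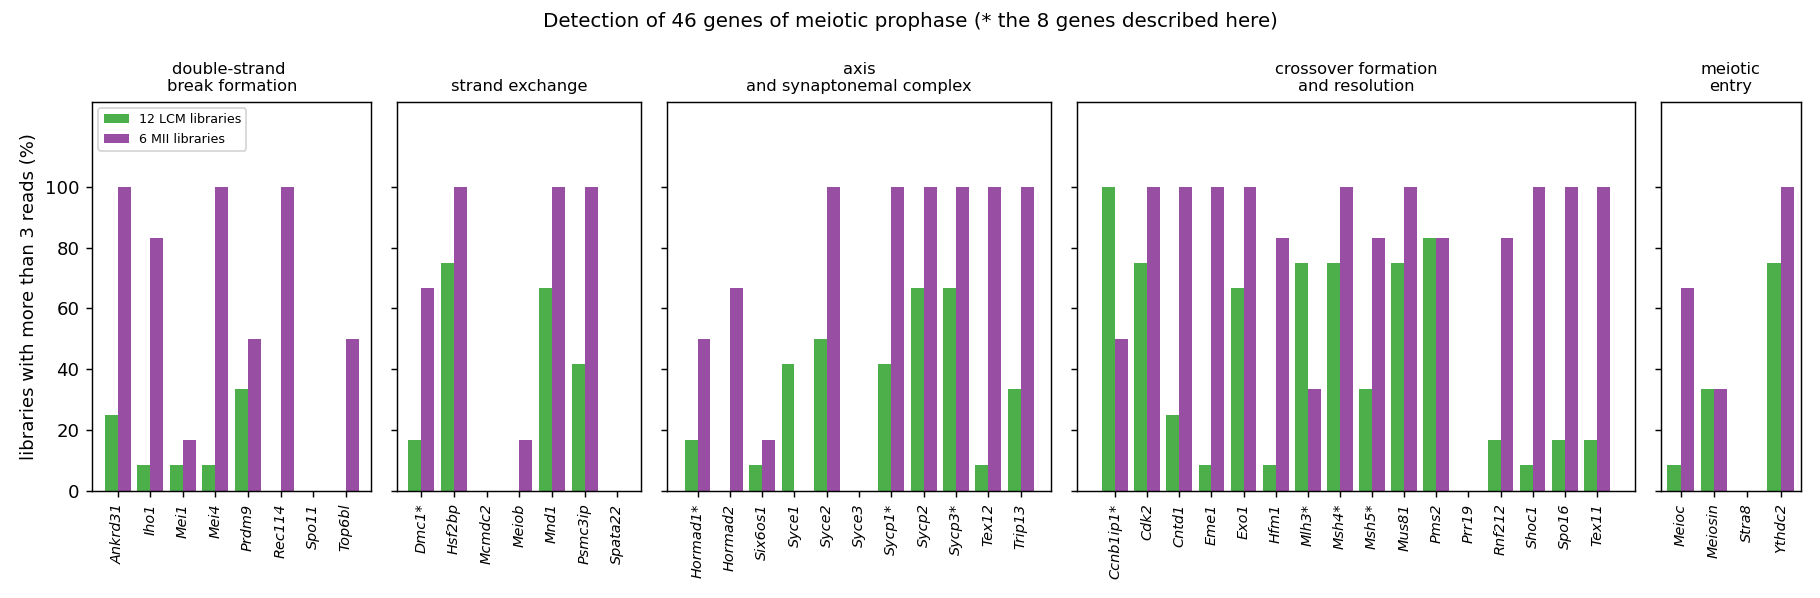
Share of libraries with more than 3 reads (y axis, %) for 46 genes of meiotic prophase in 5 lists on the x axis, in green for the 12 LCM and in purple for the 6 MII libraries, with stars on the 8 genes. *Ccnb1ip1* is the only gene above the floor in every LCM library, with reads equal to those of *Rpph1* in 10 of the 12. Of the 46 genes, 22 were above the floor in every MII library, beside 60.6% of all genes with at least 10 MII reads.

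Of the 44 list genes open to a test, *Ccnb1ip1* and *Mlh3* being left out, 37 were tested in MII oocytes and 33 in LCM oocytes, and 0 were called in any of the 6 comparisons. In MII oocytes 5 of the 37 lay higher *in vitro* without overlap and 3 lower, beside 9.37% and 6.81% of all genes. Their median log2 fold change was 0.09, beside 0.04 over all genes, and 22 of 37 were above 0, beside 51.7% of all genes. At an unadjusted p under 0.05 in edgeR there were 4 of the 37, beside 10.2% of all genes. They are named here after their values were seen: *Sycp3*, *Meioc*, *Meiosin* and *Shoc1*. Of these *Shoc1*, a crossover factor, was lower *in vitro* by log2 fold change (-0.995 ± 0.365, SE, with an adjusted p of 0.403 in edgeR). In primordial oocytes 4 of 33 were lower *in vitro* without overlap, 3 of them among the 9 axis and synaptonemal complex genes, and 0 were higher, beside 4.55% and 2.04% of all genes. Among these 4, *Sycp1* and *Ankrd31* had only 1 and 2 reads in their lowest *in vivo* library, under the floor of 3 reads. *Sycp3* and *Syce1* had 190 and 79 reads in theirs.

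The genes with the pattern nearest to each member over the 18 libraries were *Tasor2* for *Msh4* (root mean square difference 0.542), *Dgki* for *Dmc1* (0.552), *Lin28b* for *Sycp1* (0.647), *Snx21* for *Msh5* (0.665), *Shcbp1l* for *Sycp3* (0.949) and *Oaf* for *Mlh3* (1.06). *Hormad1*, above the floor in 5 libraries, was left out. None of these was another of the 8 genes, and the values describe the libraries only.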

How the data were processed

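The 18 libraries were grouped by the sample labels, 3 to a group. The authors trimmed reads with Trim Galore 0.4.1, aligned them with TopHat2 (mm10) and assigned them to genes with featureCounts, and they deposited raw read counts for 53715 genes and length-normalized TPM for 28252. Strand use and the treatment of reads over several genes are not given in the sources used here. Total counts per library are given above. Counts were tested with edgeR 4.0.16 (R 4.3.3; quasi-likelihood, robust, TMM) on genes with at least 10 counts in total, in a model of the 12 LCM and one of the 6 MII libraries, and a call needed a change of at least 2-fold and an adjusted p (Benjamini-Hochberg) under 0.05. The SE is that of the log2 fold change. Scripts were tested on simulated data. Alternatives were DESeq2 1.42.0, limma 3.58.1 on log2(TPM + 1), other scaling and filters, a replicate block, fits of 2 groups alone, and fits without each library in turn. The members and lists were chosen with earlier results of these data known. Every one of the 8 genes is named. Of the lists, the 3 genes with the highest mean TPM in MII or LCM oocytes could be named. Results for some list genes are not reported here, and the lists were counted without them. Any other is named for its detection or marked. Coordinates are from GENCODE vM21 (GRCm38), promoters from RefSeq (GRCm38.p6).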

Additional observations from a re-analysis of the deposited data

How the results depend on the processing

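No alternative called any of the 6 tested genes in any comparison. In LCM oocytes DESeq2 gave an adjusted p only for *Sycp3* among them, so it could not call the others. The counts of all genes called did depend on the processing, and the cause was not tested. They were 60 in MII, 5 in primordial and 0 in primary oocytes (*in vitro* against *in vivo*), 8 and 0 between the stages *in vivo* and *in vitro*, and 16 for the interaction. DESeq2 called 337, 812, 244, 561, 454 and 558 in that order. Without the filter on low counts there were 263 in MII oocytes, 0 in primordial oocytes, 0 between the stages *in vivo* and 1 for the interaction. The stricter filter and limma on TPM each gave 0 in primordial oocytes, between the stages *in vivo* and for the interaction. DESeq2's size factors in edgeR gave 1 in primary oocytes. Fits of only the 2 groups compared gave 9 in primordial and 5 in primary oocytes and 3 between the stages *in vivo*. Leaving out each library gave 11 to 378 in MII oocytes (378 without the first *in vivo* library, 11 without the third *in vitro* library), 0 to 3 in primordial oocytes, 0 to 1 in primary oocytes, 0 to 11 between the stages *in vivo* and 0 to 20 for the interaction.

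The replicate block gave 1 call in primordial oocytes, 0 between the stages *in vivo* and 0 for the interaction. Same-numbered libraries showed no shared deviation (correlations of -0.024 to 0.016 in MII and -0.066 to 0.090 in LCM libraries). Libraries of different numbers gave -0.038 to 0.029 and -0.078 to 0.090. This gave no sign that the numbers pair the samples, but 3 libraries per group are too few to exclude pairing. Under the block the log2 fold change of *Msh4* between the stages *in vivo* was 1.21 in place of -0.15 and that of *Sycp3* between the stages *in vitro* 2.36 in place of -0.08. The former was 0.53 with DESeq2's size factors, both in edgeR and in DESeq2, and the latter 0.21 with limma, which gave -0.044 for *Sycp1* in MII oocytes.

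Leaving out each library turned the sign of some log2 fold changes. In MII oocytes the ranges were -1.38 to 0.12 for *Dmc1*, -0.76 to 6.62 for *Hormad1*, -1.78 to 0.16 for *Msh5* and -0.29 to 0.19 for *Sycp1*. In primordial oocytes they were -1.69 to 5.24 for *Msh4* and -5.74 to 7.99 for *Msh5*, and in primary oocytes -8.64 to 1.57 for *Msh5* and -3.78 to 0.68 for *Sycp3*. Between the stages *in vivo* they were -1.28 to 0.58 for *Msh4* and -5.73 to 4.29 for *Msh5*. Between the stages *in vitro* they were -4.50 to 4.36 for *Msh4*, -12.3 to 1.60 for *Msh5* and -1.79 to 5.71 for *Sycp3*, and for the interaction -4.35 to 4.51 for *Msh4*. *Sycp3* kept its sign in MII (0.94 to 1.70) and primordial oocytes (-11.5 to -5.14). DESeq2's size factors moved the median log2 fold change of all genes by -0.27 in primary oocytes, by -0.22 between the stages *in vitro* and by -0.31 for the interaction. At a limit of 10 reads, *Hormad1* was detected in 3 libraries in place of 5.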
